A study of Mus musculus with 194 samples.

Results

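The neurexophilin genes Nxph1, Nxph2, Nxph3 and Nxph4 were followed through a set of transposon calling card libraries from mouse brain. In this method a reporter transposon is inserted at TTAA sequences, and each insertion marks a place where a transposase acted on the genome of a live cell. The 4 genes are 4 of 21627 protein-coding genes with a locus here, a locus being the gene body with 10 kb on each side. They were selected on measured values, namely the higher insertion levels at Nxph1 and Nxph2 in Syn1Cre than in GFAPCre and Syn1CreNeg cortex, so these contrasts are given as a description with no p. The measure is the number of insertions (lines of a deposited table) in the locus per 1000000 insertions of that table, written IPM.

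Neurexophilins are secreted glycoproteins, and members such as NXPH1 bind tightly to alpha-neurexins. These are presynaptic adhesion molecules that reach across the synaptic cleft to neuroligins and other partners. NXPH1, the founding member, is known in cortex mainly from GABAergic inhibitory interneurons. NXPH3 is known from layer 6b, the deepest cortical layer, and less is known of NXPH2 and NXPH4. An insertion count is not a transcript level, and it does not say in which cell an insertion lay.

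By the labels' protocols, every animal was injected at birth (day 0 to 1) with adeno-associated virus (AAV). The groups Syn1Cre (6 animals) and GFAPCre (6) are mice of Cre lines whose names refer to the neuronal synapsin 1 promoter and to the glial fibrillary acidic protein promoter of astrocytes. Syn1CreNeg (6) and GFAPCreNeg (6) are labelled as negative for that Cre. Syn1Cre_SP1_P10 (3) and Syn1Cre_SP1_P28 (4) are Syn1Cre animals that also carry the label SP1, a transcription factor that binds GC boxes, and the days 10 and 28. The C57bl6J group (2) received viruses that need no Cre, per the series design, and Frontflip_GFAPCre (3) and Frontflip_GFAPCreNeg (3) are named after a vector that the labels do not describe. In these 9 groups cortex was used, and insertions were read from RNA as self-reporting transposons. Rbp4Cre_TRAP (4) carries a Cre line used for layer 5 pyramidal neurons, and its RNA came from whole forebrain by TRAP. BrokenHeart (3) was read from cortical DNA, and N2a is 1 table of a mouse neuroblastoma line in which 3 experiments were combined. Neither the transposase nor the SP1 construct, nor the age of the groups without a day, is given in the sources used here.

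The reference start of Nxph1 and of Nxph2 is shown first, since several results below concern the distance from it. Both are on the plus strand of GRCm38.p6 and were taken from RefSeq. Each run covers 250 bases before and 50 bases after the start, with capitals for the GC box of SP1, searched as GGGCGG or CCGCCC so that both strands are covered.
Nxph1 promoter, chr6:8949769-8950068: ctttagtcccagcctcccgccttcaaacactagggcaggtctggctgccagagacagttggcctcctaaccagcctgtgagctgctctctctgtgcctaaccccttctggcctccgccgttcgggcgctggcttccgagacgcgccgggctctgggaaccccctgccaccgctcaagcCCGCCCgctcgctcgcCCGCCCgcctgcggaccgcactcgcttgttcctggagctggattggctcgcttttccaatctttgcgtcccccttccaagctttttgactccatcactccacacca
Nxph2 promoter, chr2:23320996-23321295: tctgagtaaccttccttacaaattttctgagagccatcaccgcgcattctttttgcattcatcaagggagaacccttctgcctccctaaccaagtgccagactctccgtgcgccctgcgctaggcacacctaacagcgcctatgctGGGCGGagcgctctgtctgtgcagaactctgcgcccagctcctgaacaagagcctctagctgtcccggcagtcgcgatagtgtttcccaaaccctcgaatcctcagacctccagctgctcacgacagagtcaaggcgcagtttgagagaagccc
The Nxph1 run held 2 GC boxes in 64% G and C, and the Nxph2 run 1 GC box in 56% G and C. Of 32851 mouse promoters of this length, 35.7% held at least 1 GC box, and the median was 52.7% G and C. Neither run contained TTAA, which 52.4% of these promoters did, and no insertion of any table lay inside them. The promoter table used had no entry for Nxph3 and Nxph4, so distances from the start were not computed for these genes.

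The loci differ in size. Nxph1 (gene 18231) spans chr6:8948614-9249619, a body of 301 kb and a locus of 321 kb. Its body begins before the start used here (chr6:8950019), so the stretch just before that start includes some gene body. Nxph2 (gene 18232) spans chr2:23321246-23401986, Nxph3 (gene 104079) chr11:95509845-95514565 and Nxph4 (gene 104080) chr10:127525473-127534559, with loci of 101, 24.7 and 29.1 kb. Tables held between 443158 and 1364948 insertions in Syn1Cre, 600443 and 1505413 in GFAPCre, 97519 and 597230 in the groups labelled negative, and 1545951 and 2186743 in C57bl6J. Depth was lower in Syn1Cre_SP1_P10 (86842 to 95331), Syn1Cre_SP1_P28 (108965 to 577609), Frontflip_GFAPCre (160631 to 205559), BrokenHeart (42511 to 98197) and Rbp4Cre_TRAP (24408 to 57014). Frontflip_GFAPCreNeg tables held at most 9601 insertions and none at any of the 4 loci, which allows up to 170 IPM over the group, so this group was not compared. Some deposited sequencing samples pooled GFAPCre with GFAPCreNeg or with Syn1CreNeg animals, both SP1 ages, or the Frontflip groups with each other and with Syn1CreNeg. Between all other groups compared, sequencing sample and group cannot be told apart.

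Nxph1 had the most insertions. Syn1Cre animals ranged from 246 to 324 IPM (median 262, mean 273 ± 28.7 SD, n = 6, 1562 insertions in all). GFAPCre animals ranged from 50.7 to 80.7 with a median of 66.9, Syn1CreNeg from 33.6 to 55.0 with a median of 48.4, and GFAPCreNeg from 38.5 to 65.3 with a median of 47.9. The Syn1Cre animals therefore lay above every animal of those 3 groups, whose ranges overlap each other.

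The C57bl6J animals gave 206.3 and 244.2 IPM for Nxph1, and the Syn1Cre_SP1_P10 animals 241.8, 401.0 and 377.6. The Syn1Cre_SP1_P28 animals gave 146.6, 211.1, 200.5 and 164.5, and the BrokenHeart animals 137.3, 91.7 and 117.6. Low values came from Frontflip_GFAPCre (102.2, 56.0 and 24.5), Rbp4Cre_TRAP (70.2, 19.9, 25.0 and 41.0, from 7 insertions) and N2a (23.6, with an exact Poisson 95% interval of 14.2 to 36.8). The group means ran from Syn1Cre_SP1_P10 (340 ± 86.0) through Syn1Cre, C57bl6J (225 ± 26.8), Syn1Cre_SP1_P28 (181 ± 30.2) and BrokenHeart (116 ± 22.9) to GFAPCre (66.7 ± 10.6). The range of Syn1Cre_SP1_P10 overlaps those of Syn1Cre and C57bl6J, and the ranges of C57bl6J and Syn1Cre_SP1_P28 overlap. Below GFAPCre, the ranges of Frontflip_GFAPCre, GFAPCreNeg, Syn1CreNeg and Rbp4Cre_TRAP all overlap with it, and that of Frontflip_GFAPCre also overlaps with BrokenHeart.

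Nxph2 followed a like order at lower counts. Syn1Cre animals ranged from 38.5 to 61.7 IPM (median 56.0, mean 54.3 ± 8.21, 309 insertions), and the C57bl6J animals gave 56.3 and 59.0. GFAPCre ranged from 6.66 to 16.3 (median 10.5), GFAPCreNeg from 0 to 12.4 (median 7.40) and Syn1CreNeg from 0 to 10.8 (median 4.38). Syn1Cre and C57bl6J overlap each other and lie above every animal of these 3 groups. The Syn1Cre_SP1_P10 animals, at 103.6, 78.0 and 104.9, were the highest, and the Syn1Cre_SP1_P28 animals gave 25.9, 9.18, 42.5 and 26.0. Frontflip_GFAPCre gave 0, 12.5 and 0, Rbp4Cre_TRAP 35.1, 19.9, 0 and 0, BrokenHeart 0, 0 and 23.5, and N2a 2.48. Those 4 groups rest on 1 to 3 insertions each.

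Nxph3 and Nxph4 did not share that order. Nxph3 ranged from 14.1 to 30.2 IPM in Syn1Cre (median 22.1, 120 insertions) and from 9.99 to 25.2 in GFAPCre (median 19.9), and C57bl6J gave 14.2 and 15.1. The highest level at the Nxph3 locus was that of the N2a line, 53.3 with an exact Poisson 95% interval of 38.6 to 71.8 from 43 insertions. Of these 43, 0 lay in the gene body, so this level comes from the flanks. Nxph4 ranged from 0 to 13.1 in Syn1Cre (median 9.72) and from 3.25 to 7.34 in GFAPCre (median 4.49), with 17.4 in N2a (9.49 to 29.1). For both genes the Syn1Cre and GFAPCre animals overlap.

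**Figure D1:**
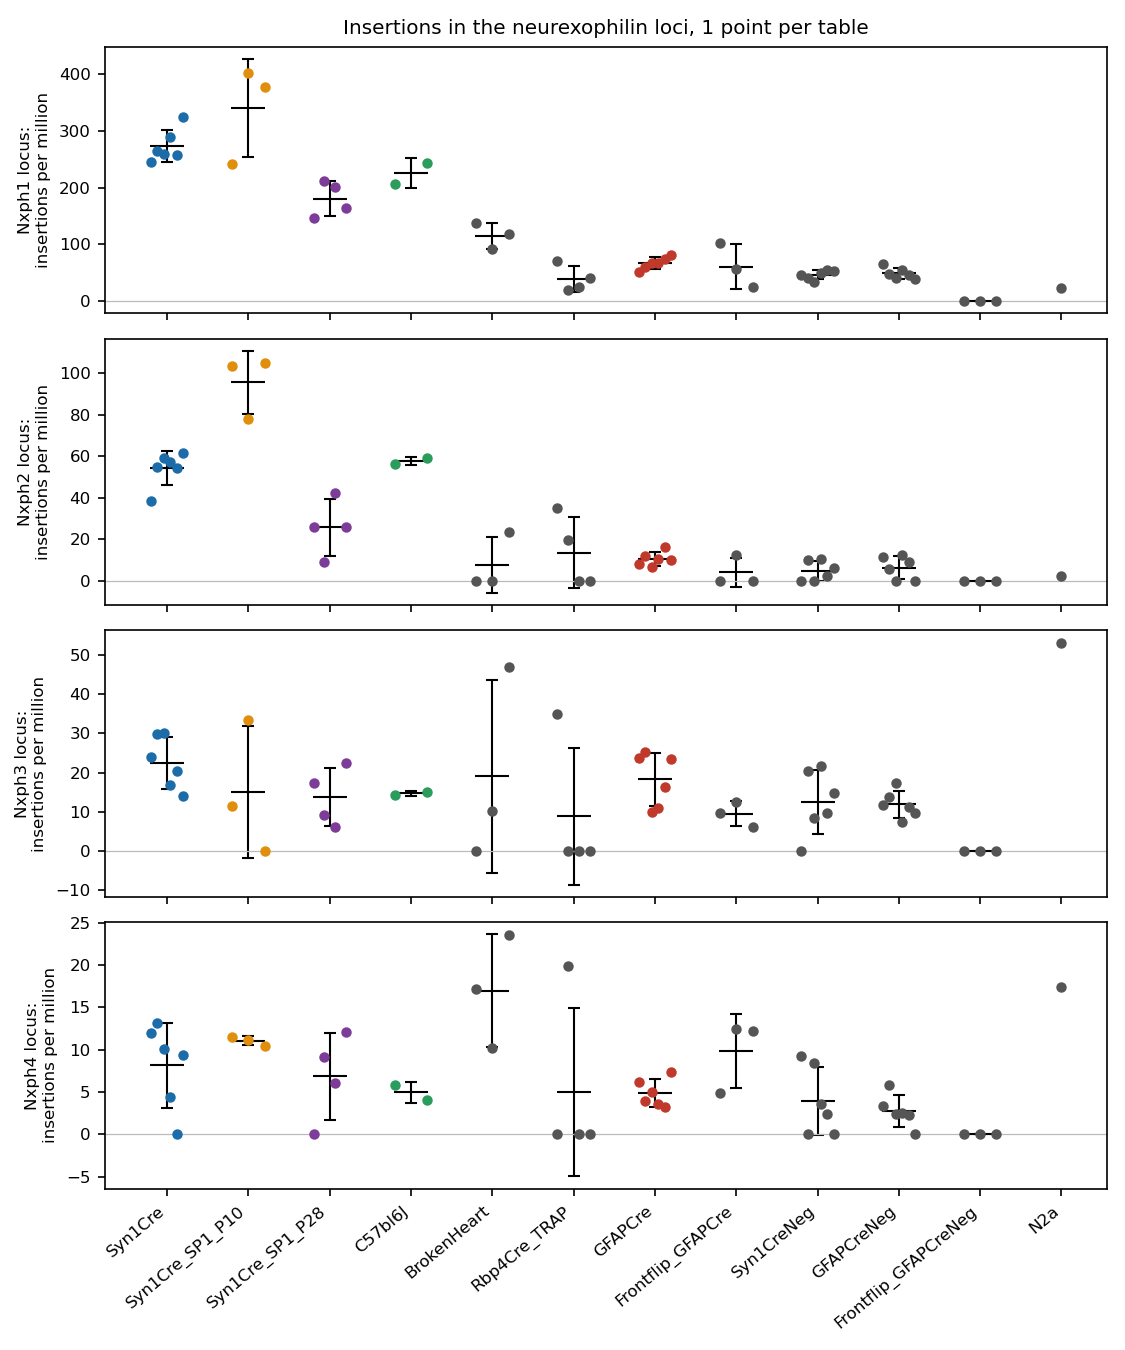
Insertions per 1000000 insertions of each table, IPM (vertical axes) at the 4 neurexophilin loci, 1 panel a gene, by group (horizontal axis). Points are animals or the N2a table, and bars are the mean with the SD. Both Nxph1 and Nxph2 are high in Syn1Cre, C57bl6J and Syn1Cre_SP1_P10. In Syn1Cre_SP1_P28 Nxph2 reaches down to 9.18, within the GFAPCre range, a value that rests on 1 insertion. For Nxph3 the N2a value of 53.3 stands highest.

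Per kb of locus the genes can be compared with each other. In Syn1Cre the level was 0.851 IPM per kb for Nxph1, 0.539 for Nxph2, 0.911 for Nxph3 and 0.280 for Nxph4, against 0.316 for the median locus. In GFAPCre the same 4 values were 0.208, 0.106, 0.739 and 0.168 against a median of 0.295. Thus the short Nxph3 locus was about as dense as Nxph1 in Syn1Cre but lay above 82.0% of loci in GFAPCre also, where Nxph1 lay above 39.8%. In N2a, the Nxph3 locus reached 2.16, with no insertion in the gene body, and lay above 95.3% of loci. Nxph1 (0.0734) and Nxph2 (0.0246) lay above 27.8% and 19.2% in N2a.

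The contrasts on which the genes were chosen had these sizes. By edgeR, Syn1Cre over GFAPCre was 2.01 ± 0.13 (log2, SE) for Nxph1, 2.29 ± 0.19 for Nxph2 and 0.11 ± 0.23 for Nxph3, where 2.15% of all loci tested passed an adjusted p of 0.05. Syn1Cre over Syn1CreNeg was 2.43 ± 0.16, 3.08 ± 0.34 and 0.53 ± 0.33, where 31.1% of loci passed. Nxph4 had too few insertions to be tested in either. Nothing is read from these counts, since the choice of genes used them.

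The animals that entered no such contrast are those of C57bl6J, Frontflip_GFAPCre, both SP1 groups, Rbp4Cre_TRAP, BrokenHeart and GFAPCreNeg. All comparisons below that involve Syn1Cre, GFAPCre or Syn1CreNeg share those animals with the contrasts of the choice. In the 13 other comparisons, Nxph1 was tested in 13 and passed in 7 (2 higher and 5 lower in the group named first), and Nxph2 was tested in 7 and passed in 4 (2 higher, 2 lower). Between 0.0426% and 51.5% of all loci passed in these comparisons. The calls without animals of the choice were C57bl6J against Frontflip_GFAPCre for both genes, where Nxph2 met the low-count filter through C57bl6J alone. For Nxph1 they were also BrokenHeart against C57bl6J and Syn1Cre_SP1_P28 against Syn1Cre_SP1_P10. The tally mixes both kinds, so nothing is read from its totals. Nxph3 passed in 0 of 8 and Nxph4 in 0 of 1 by edgeR at an adjusted p of 0.05, with 1 and 0 under an unadjusted p of 0.05, and 0 for both by DESeq2.

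**Figure D2:**
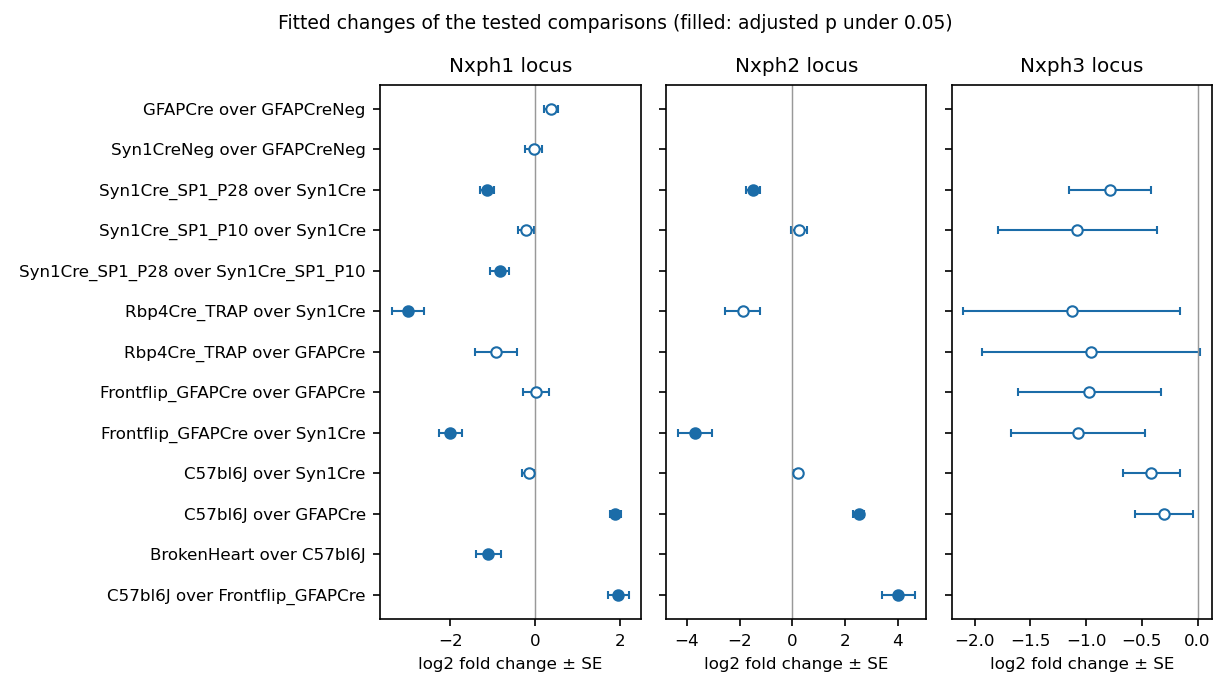
Log2 fold change with its SE (horizontal axes) of Nxph1, Nxph2 and Nxph3 in the comparisons that the choice of genes did not use, the group named first over the second. Filled points have an adjusted p under 0.05. Nxph1 and Nxph2 are higher in C57bl6J than in both GFAPCre groups, and no Nxph3 point is filled.

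Cortex that received Cre-independent viruses had more insertions at Nxph1 and Nxph2 than GFAPCre cortex, and no difference from Syn1Cre cortex passed. In C57bl6J over GFAPCre, Nxph1 was 1.88 ± 0.13 higher on the log2 scale, a 3.69-fold difference (adjusted p = 7.32e-11, edgeR quasi-likelihood test with Benjamini-Hochberg adjustment), and Nxph2 was 2.51 ± 0.19 higher, 5.71-fold (adjusted p = 1.62e-10). Both C57bl6J animals lay above all 6 GFAPCre animals. Nxph3 differed by -0.30 ± 0.26 (adjusted p = 0.512). Here 2 of the 3 neurexophilins tested passed, against 12.5% of all loci.

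Against Syn1Cre, the C57bl6J animals gave -0.15 ± 0.15 for Nxph1 (adjusted p = 0.730, 95% interval -0.44 to 0.15) and 0.21 ± 0.17 for Nxph2 (adjusted p = 0.627, interval -0.12 to 0.53). Nxph3 (-0.41 ± 0.26, adjusted p = 0.501) and Nxph4 (-0.65 ± 0.47, adjusted p = 0.57) did not pass either in this edgeR fit, in which 0.803% of loci did. The ranges of IPM for Nxph1 stop just short of each other, at 244.2 in C57bl6J and 246 in Syn1Cre. Of the loci past the threshold, 97.4% were higher in C57bl6J with TMM scaling and 68.5% with scaling by total insertions. In C57bl6J over GFAPCre that share was 56.1% and 33.6%. The neurexophilin calls were the same under both scalings.

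Frontflip_GFAPCre cortex was low at both genes. A comparison of C57bl6J with Frontflip_GFAPCre was added after the data had been seen, because neither group had entered the choice of genes. Nxph1 was 1.95 ± 0.25 higher in C57bl6J (adjusted p = 2.35e-08, edgeR), with no overlap between animals. Nxph2 also passed (adjusted p = 1.25e-06, edgeR), on 216 insertions against 2, a ratio of pooled levels of 15.3 with an exact 95% interval of 4.19 to 127, which covers counting error only. It met the low-count filter through its level in C57bl6J alone, so nothing is read from its p. Both Frontflip_GFAPCre insertions came from 1 animal and had a single read each, and with insertions of 2 or more reads, or with distinct positions, Nxph2 had too few to be tested. In this comparison 32.0% of loci passed, 46.7% of them higher in C57bl6J with TMM and 31.7% with scaling by total insertions.

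Against Syn1Cre, Frontflip_GFAPCre was lower at Nxph1 (a log2 change of -2.0 ± 0.27, adjusted p = 2.00e-04, edgeR), and -2.65 without its animal 1. Nxph2 passed as well (adjusted p = 0.00208, edgeR), on 2 insertions against 309, a pooled ratio of 14.7 (interval 4.03 to 122), but not with insertions of 2 or more reads (adjusted p = 0.0534). Here too it met the low-count filter through the high group alone, Syn1Cre, so nothing is read from its p. Without Frontflip_GFAPCre animal 2, the only one with Nxph2 insertions, the group is at 0. Nxph3 was -1.07 ± 0.60 (adjusted p = 0.390), although its animals do not overlap. In all, 3.48% of loci passed in this comparison, 73.4% of them higher in Frontflip_GFAPCre with TMM and 58.8% with scaling by total insertions. Against GFAPCre, Nxph1 was 0.02 ± 0.30 (adjusted p = 0.990, 95% interval -0.57 to 0.61, edgeR) and Nxph3 -0.97 ± 0.64 (adjusted p = 0.536), where 1.75% of loci passed, 85.9% of them higher in Frontflip_GFAPCre with TMM and 75.5% with scaling by total insertions.

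GFAPCre cortex against its negatives, and the 2 groups of negatives against each other, gave smaller values at Nxph1. GFAPCre over GFAPCreNeg was 0.37 ± 0.16 (adjusted p = 0.142, edgeR) with overlapping animals, where 8.12% of loci passed. With each position counted once per animal it passed narrowly (0.44, adjusted p = 0.0483). Syn1CreNeg over GFAPCreNeg was -0.04 ± 0.19 (adjusted p = 0.963, edgeR), where 0.0426% of loci passed. The other 3 genes had too few insertions to be tested there.

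Forebrain of Rbp4Cre_TRAP animals was low at Nxph1. Relative to Syn1Cre the log2 change was -2.99 ± 0.37 (adjusted p = 2.09e-06, edgeR), and all 4 animals lay below the 6 Syn1Cre animals. It was -3.73 without Rbp4Cre_TRAP animal 1. Nxph2 had 3 insertions against 309, a pooled level in Syn1Cre of 3.18 times that of Rbp4Cre_TRAP (exact 95% interval 1.08 to 15.5), and did not pass (adjusted p = 0.128, edgeR). Nxph3 was -1.13 ± 0.97 (adjusted p = 0.619). In this comparison 2.09% of loci passed, the median of all loci tested was -0.31, and 8.52% of the loci past the threshold were higher in Rbp4Cre_TRAP with TMM against 42.6% with scaling by total insertions. Relative to GFAPCre, Nxph1 was -0.92 ± 0.50 (adjusted p = 0.320, edgeR) and Nxph3 -0.96 ± 0.98 (adjusted p = 0.647), where 5.98% of loci passed, 12.4% of them higher with TMM and 38.9% with scaling by total insertions. Tissue and preparation differ between these groups and cannot be told apart from the Cre line.

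In DNA-read cortex Nxph1 was lower than in RNA-read C57bl6J cortex, with a log2 change of -1.10 ± 0.29 in BrokenHeart (adjusted p = 0.00285, edgeR) and no overlap. It did not pass with insertions of 2 or more reads (-0.75, adjusted p = 0.0788). Nxph2 had 1 BrokenHeart insertion against 216 and was not tested. Here 39.9% of loci passed, so that a locus past the threshold was common.

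Interneuron genes, and in some comparisons genes of other neuronal lists, moved in the direction of Nxph1 and Nxph2. A list of 14 (among them Gad1 and Gad2, which make GABA, the transcription factors Dlx1, Dlx2 and Lhx6, and the peptide somatostatin, Sst) summed to between 1714 and 2090 IPM in Syn1Cre, 1524 and 1558 in C57bl6J, and 466 and 605 in GFAPCre. In C57bl6J over GFAPCre, where 12.5% of all loci passed, 11 of 13 tested were higher and 0 lower. The list median was 2.12 against -0.01 for all loci, with Sst at 2.76 ± 0.26 and Gad2 at 2.53 ± 0.19. In C57bl6J over Frontflip_GFAPCre, where 32.0% of all loci passed, 7 of 8 were higher and 0 lower. With scaling by total insertions 7 were higher and 1 lower. In C57bl6J over Syn1Cre 0 of 14 passed in either direction by edgeR, with 6 under an unadjusted p of 0.05 and 0 by DESeq2.

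In Rbp4Cre_TRAP against Syn1Cre, where 2.09% of all loci passed, 9 of 13 interneuron genes were lower and 0 higher. The list summed to between 139 and 324 IPM in Rbp4Cre_TRAP, with Dlx2, Dlx5, Gad1, Lhx6, Maf, Sp9 and Npas1 at 0, each of which allows up to 17.5 IPM over the group. In Frontflip_GFAPCre, where the sum was 342 to 574, 11 of 13 were lower than in Syn1Cre and 0 higher, against 3.48% of all loci passing. Against GFAPCre 0 of 8 passed by edgeR (1 under an unadjusted p of 0.05, 0 by DESeq2). In BrokenHeart against C57bl6J, where 39.9% of all loci passed, 3 of 5 were lower (Dlx1 by -3.26 ± 0.42) and 1 higher (Gad1 by 1.44 ± 0.39). Genes of the layer 6b list, named after the layer NXPH3 is known from, and of excitatory neurons moved the same way in some comparisons. The layer 6b list also holds Foxp2, Tle4 and Tbr1, which are not particular to that layer. In C57bl6J over GFAPCre, where 12.5% of all loci passed, 5 of 7 layer 6b genes were higher and 0 lower (Foxp2 1.11 ± 0.12, list median 0.57), or 4 of 7 with scaling by total insertions, and 2 of 8 excitatory genes were higher and 0 lower (Slc17a6, a vesicular glutamate transporter, 1.17 ± 0.13). In C57bl6J over Frontflip_GFAPCre, where 32.0% of all loci passed, 2 of 4 and 3 of 7 were higher. With scaling by total insertions these were 1 and 2. In BrokenHeart against C57bl6J, where 39.9% of loci passed, 3 of 4 layer 6b genes and 5 of 5 excitatory genes were lower. In Frontflip_GFAPCre against Syn1Cre 1 of 6 layer 6b genes was lower, and 0 of 8 excitatory genes passed by edgeR (1 under an unadjusted p of 0.05, 0 by DESeq2). In Rbp4Cre_TRAP against Syn1Cre 1 of 6 layer 6b genes was lower and 0 higher, while 1 of 8 excitatory genes was higher and 0 lower.

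In bulk tissue, more cells of a type and more insertions per cell cannot be told apart, and the part of the interneuron, layer 6b and excitatory genes in the Nxph1 and Nxph2 results was not tested.

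Astrocyte genes moved the other way in some of them. The 12-gene list (among them the glutamate transporters Slc1a2 and Slc1a3 and the water channel Aqp4) was lower in C57bl6J than in GFAPCre for 8 of 12 and higher for 0, where 12.5% of all loci passed. It was lower than in Frontflip_GFAPCre for 8 of 8, where 32.0% passed. Its sum was 827 to 889 IPM in C57bl6J, 1218 to 2385 in GFAPCre, 2510 to 3628 in Frontflip_GFAPCre and 945 to 2875 in Syn1Cre. In Syn1Cre against GFAPCre 0 of 11 passed by edgeR (3 under an unadjusted p of 0.05, 0 by DESeq2). The list median there was -0.35 against -0.0024 for all loci. The median sums were 1172 IPM in Syn1Cre and 1696 in GFAPCre, with overlapping ranges. Of 5 layer 5 genes, 4 were tested in Rbp4Cre_TRAP against Syn1Cre and 0 passed by edgeR (1 under an unadjusted p of 0.05, 1 by DESeq2), while against GFAPCre Fezf2 was higher (0.87 ± 0.23, adjusted p = 0.00954, edgeR) and Etv1 lower (-1.17 ± 0.27, adjusted p = 0.00264). The part of these genes in the neurexophilin results was not tested.

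The neurexins and neuroligins, to which neurexophilins such as NXPH1 are linked at the synapse, were not higher in C57bl6J where Nxph1 and Nxph2 were. In C57bl6J over GFAPCre, where 12.5% of all loci passed, 0 of 6 were higher and 3 lower (Nrxn2 by -0.85 ± 0.18 and Nlgn1 by -0.58 ± 0.11 among them). Over Frontflip_GFAPCre, where 32.0% passed, 0 of 4 were higher and 3 lower. In Syn1Cre over GFAPCre 0 of 5 passed by edgeR (3 under an unadjusted p of 0.05, 0 by DESeq2). Where Nxph1 was lower, the list differed by comparison. In BrokenHeart against C57bl6J, where 39.9% of all loci passed, 2 of 3 were lower and 0 higher. In Rbp4Cre_TRAP against Syn1Cre (2.09%) 1 of 5 was lower and 0 higher, and in Frontflip_GFAPCre against Syn1Cre (3.48%) 1 of 5 was higher and 0 lower. Of 16 other neurexin partners, such as the cerebellins, the LRRTM proteins and the latrophilins, 14 were tested in C57bl6J over GFAPCre. There Cbln2 (1.29 ± 0.25) and Adgrl2 (0.51 ± 0.11) were higher and Adgrl3 was lower (-0.32 ± 0.11). With scaling by total insertions 2 were higher and 2 lower.

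Within the locus, Nxph1 insertions were densest just after the start in Syn1Cre, C57bl6J, GFAPCre, Frontflip_GFAPCre and both SP1 groups. In Syn1Cre the first 10 kb held 324 insertions, or 58.1 ± 6.50 IPM, followed by 27.8 in the bin from 10 to 20 kb, 23.6 in the 10 kb before the start, 23.0 at 170 to 180 kb and 20.3 at 40 to 50 kb. In C57bl6J the first 10 kb held 37.1 IPM and in GFAPCre 12.6 ± 3.37, and that bin was the highest in these groups also. Insertions lay in the gene body rather than its flanks for 90.7% of the Syn1Cre insertions at Nxph1 and 89.0% at Nxph2, against 2.5% at Nxph3 and 21.3% at Nxph4.

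At Nxph2 most insertions lay at the start. The first 10 kb held 254 of 309 Syn1Cre insertions (44.5 ± 6.69 IPM), 166 of 216 in C57bl6J (44.6 IPM) and 38 of 56 in GFAPCre (7.15 ± 2.72). Within 5 kb of the start on either side lay 69.4% ± 7.45 of the Syn1Cre insertions, 65.5% ± 8.18 in C57bl6J and 56.7% ± 18.3 in GFAPCre. For Nxph1 the same share was 18.2% ± 1.43 in Syn1Cre, 18.2% and 19.1% in the C57bl6J animals and 9.16% ± 2.59 in GFAPCre. All insertions of the 987 loci with genes of 150 to 600 kb gave 8.69% in Syn1Cre, 7.99% in C57bl6J and 8.43% in GFAPCre.

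**Figure D3:**
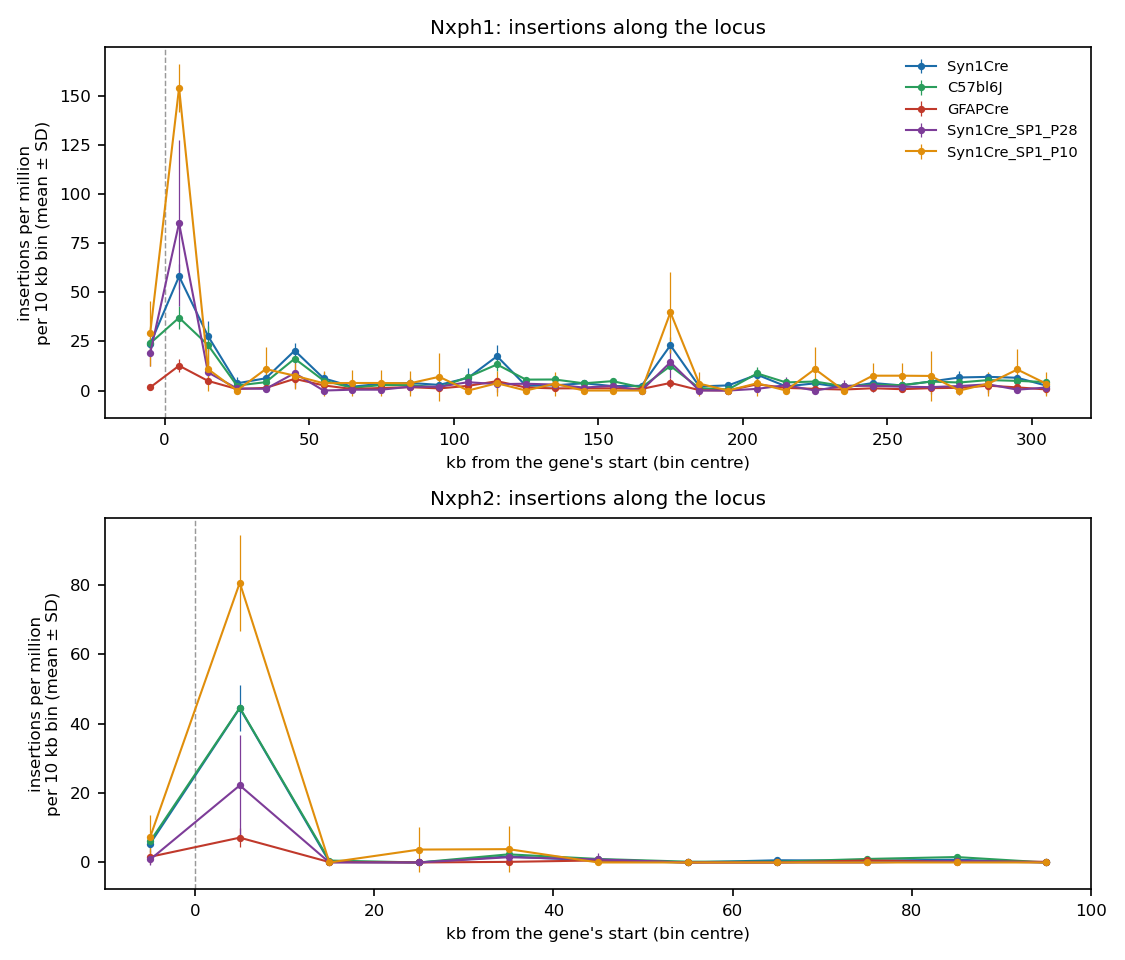
Mean IPM with the SD (vertical axes) in 10 kb bins along the Nxph1 and Nxph2 loci, by distance from the gene's start in kb (horizontal axes), for 5 groups. At Nxph1 the bin just after the start stands at 58.1 in Syn1Cre and 154 in Syn1Cre_SP1_P10, with lower bins along the body, and at Nxph2 the bin after the start holds most of the signal.

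Many positions were hit repeatedly. At Nxph1 3314 insertions lay at 1014 positions, of which 50% were seen a single time, and at Nxph2 672 insertions lay at 165 positions. The most frequent Nxph1 position, chr6:8996659-8996662, lies 46.6 kb after the start and was hit 85 times in 26 animals. At Nxph2 the leading pair, chr2:23326455-23326458 and chr2:23323149-23323152, had 33 and 32 insertions at 5.21 and 1.90 kb after the start.

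At Nxph3 a single TTAA position, chr11:95501151-95501154, held 114 of 367 insertions (31.1%) in 28 animals, 8.69 kb outside the gene. This position also lies in the locus of the neighbour Spop, whose body ends at chr11:95493410. It had 40 insertions in Syn1Cre and 33 in GFAPCre but 1 in N2a, where 10 and 8 insertions at chr11:95503924-95503927 and chr11:95504690-95504693 led instead. At Nxph4 the leading position, chr10:127522177-127522180, held 19 of 124 insertions, 3.29 kb outside the gene. The Nxph4 locus overlaps the genes Ndufa4l2, Shmt2 and Lrp1, so that its insertions are shared with theirs.

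The nearest windows on each side of both genes were lower than the window with the start. In 50 kb windows, the one that holds the Nxph1 start had 116 ± 8.70 IPM in Syn1Cre, 83.3 in C57bl6J and 25.6 ± 4.96 in GFAPCre. The nearest full windows outside the locus had 8.14 in Syn1Cre against 6.25 in GFAPCre below the gene and 2.34 against 2.12 above it. The neighbour Ica1, 170 kb away, had 86.5 in Syn1Cre, 75.7 in GFAPCre and 95.3 in C57bl6J, which is a smaller contrast than that of Nxph1. Around Nxph2 the start window had 50.2 in Syn1Cre and 51.5 in C57bl6J against 8.90 in GFAPCre, and the neighbour Potegl had 10.3, 12.9 and 4.81.

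**Figure D4:**
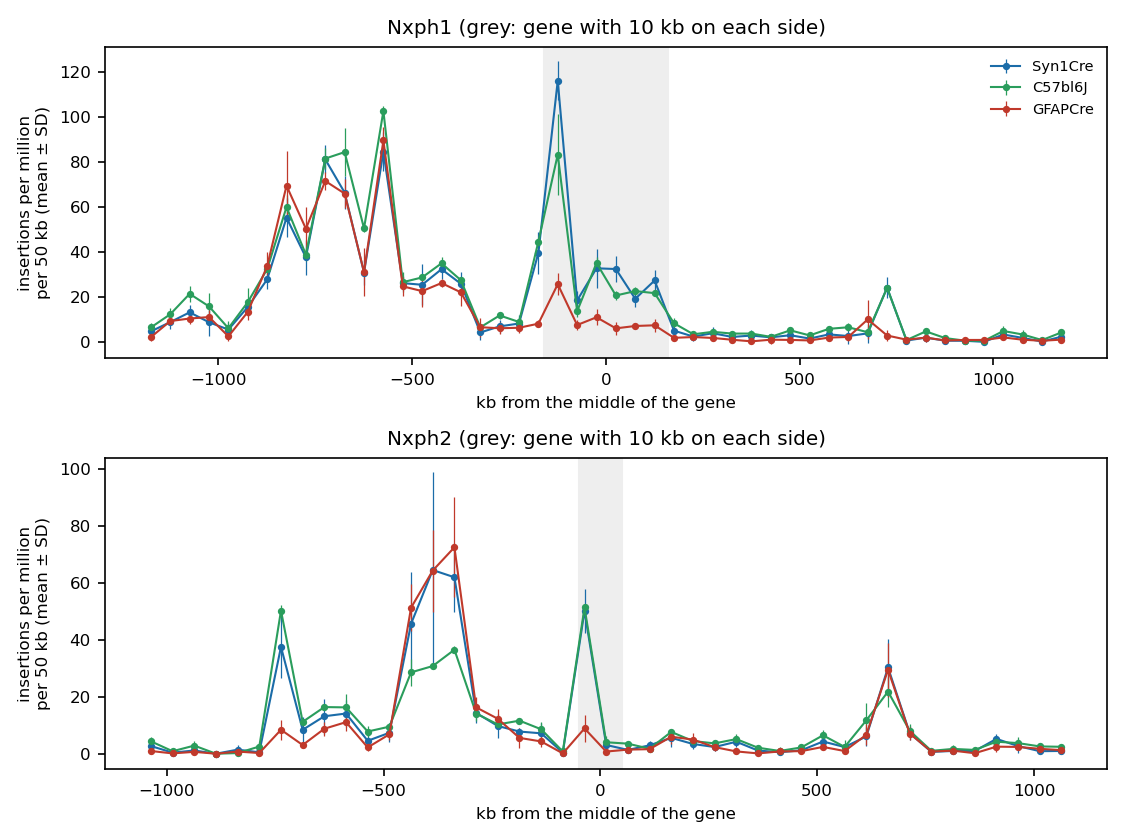
Mean IPM in 50 kb windows (vertical axes) up to 1 Mb on each side of Nxph1 and Nxph2, by distance in kb (horizontal axes), for Syn1Cre, C57bl6J and GFAPCre. The grey band is the gene with 10 kb on each side, and the window with the Nxph1 start reaches 116 in Syn1Cre against 25.6 in GFAPCre.

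With the SP1 label, Nxph1 and Nxph2 were lower at day 28 than in Syn1Cre alone, and at day 10 no difference passed. In Syn1Cre_SP1_P28 the log2 change was -1.13 ± 0.16 for Nxph1 (adjusted p = 2.74e-06, edgeR), with no overlap, and -1.50 ± 0.27 for Nxph2 (adjusted p = 5.08e-05), with 1 animal at 42.5 within the Syn1Cre range. Nxph3 was -0.78 ± 0.36 (adjusted p = 0.0706), and passed without Syn1Cre animal 6 (-0.93, adjusted p = 0.0278) or Syn1Cre_SP1_P28 animal 4 (-1.33, adjusted p = 0.0463). Of all loci 51.5% passed, so passing was common here. Scaling by total insertions gave -0.65 for Nxph1 (adjusted p = 9.72e-04) and -1.03 for Nxph2 (adjusted p = 0.00251), since it moved the median of all loci by 0.47, from -0.06 to 0.42. Of the loci past the threshold 50.9% were then higher with TMM and 80.4% with scaling by total insertions.

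In Syn1Cre_SP1_P10 against Syn1Cre, Nxph1 was -0.22 ± 0.19 (adjusted p = 0.375, 95% interval -0.60 to 0.16, edgeR), Nxph2 0.26 ± 0.30 (adjusted p = 0.520, interval -0.32 to 0.85) and Nxph3 -1.08 ± 0.71 (adjusted p = 0.225), where 40.7% of loci passed. The 3 animals lay above all Syn1Cre animals for Nxph2 IPM, on 7 to 10 insertions each. With scaling by total insertions, which moved the median of all loci by 0.53, Nxph1 turned to 0.31 (adjusted p = 0.189) and Nxph2 passed at 0.80 (adjusted p = 0.0410). The share of loci past the threshold that were higher was 49.3% with TMM and 76.1% with that scaling.

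Between the ages, Nxph1 was lower in Syn1Cre_SP1_P28 than in Syn1Cre_SP1_P10 by a log2 change of -0.84 ± 0.22 (adjusted p = 0.0161, edgeR), with no overlap between the animals, where 11.1% of loci passed. It did not pass without Syn1Cre_SP1_P10 animal 2 (adjusted p = 0.136) or 3 (0.144), or without Syn1Cre_SP1_P28 animal 1 (0.0733). Of the loci past the threshold 66.5% were higher at day 28 with TMM and 44.4% with scaling by total insertions, under which Nxph1 was -0.96 (adjusted p = 0.0127).

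Whether the share of Nxph1 insertions near the start differed with the SP1 label depended on the window. Within 5 kb of the start, the share was 20.0% ± 2.81 in Syn1Cre_SP1_P28 against 18.2% ± 1.43 in Syn1Cre, a difference of 1.83 percentage points (exact two-sided permutation p = 0.210, adjusted over 3 tests 0.314, smallest possible p 0.00476). In Syn1Cre_SP1_P10 it was 20.4% ± 11.2, a difference of 2.16 points (exact permutation p = 0.774, adjusted 0.774, smallest possible 0.0119). Within 10 kb, an alternative window, the share was 57.1% ± 13.5 in Syn1Cre_SP1_P28 (44.2% to 73.9%) and 55.6% ± 10.0 in Syn1Cre_SP1_P10 (47.2% to 66.7%) against 30.0% ± 2.12 in Syn1Cre (27.1% to 32.5%), differences of 27.1 and 25.6 points (exact permutation, adjusted p = 0.00714 and 0.0119). No SP1 animal overlapped a Syn1Cre animal in the wider window. In the 987 loci of like length the share was also larger with the SP1 label, at 19.1% in Syn1Cre_SP1_P28 and 22.1% in Syn1Cre_SP1_P10 against 12.4% in Syn1Cre within 10 kb, and at 15.5% and 18.6% against 8.69% within 5 kb.

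The levels of the 2 portions of Nxph1 differ accordingly. Within 10 kb of the start, Syn1Cre had 81.7 ± 8.35 IPM, Syn1Cre_SP1_P28 104 ± 36.1 and Syn1Cre_SP1_P10 183 ± 19.8. In the rest of the locus, Syn1Cre had 192 ± 22.9, Syn1Cre_SP1_P28 76.5 ± 24.7 and Syn1Cre_SP1_P10 157 ± 68.1. Thus in IPM the day 28 mean was below that of Syn1Cre beyond 10 kb from the start and not within 10 kb, a split that was not tested. IPM scales by total insertions, under which the median log2 change of all loci was 0.47 above that with TMM in this comparison. The portions were not computed with TMM, so their place in the TMM change is not shown.

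Much of the difference between the windows sat in the stretch from 6 to 7 kb after the start (chr6:8956019-8957018), which was singled out after its values were seen and was not tested. It held 38 of 185 Nxph1 insertions in Syn1Cre_SP1_P28 (14.7% to 47.8% by animal) and 15 of 93 in Syn1Cre_SP1_P10 (11.1% to 23.8%), against 58 of 1562 in Syn1Cre (3.24% to 5.26%) and 16 of 337 in GFAPCre (0% to 9.09%). The position chr6:8956889-8956892 within it had 21 insertions in Syn1Cre_SP1_P28, 9 in Syn1Cre_SP1_P10, 28 in Syn1Cre and 7 in C57bl6J. For Nxph2 the share within 5 kb of the start was 72.9% ± 19.6 in Syn1Cre_SP1_P28 and 69.0% ± 12.4 in Syn1Cre_SP1_P10, and too few insertions per animal were present for a test.

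**Figure D5:**
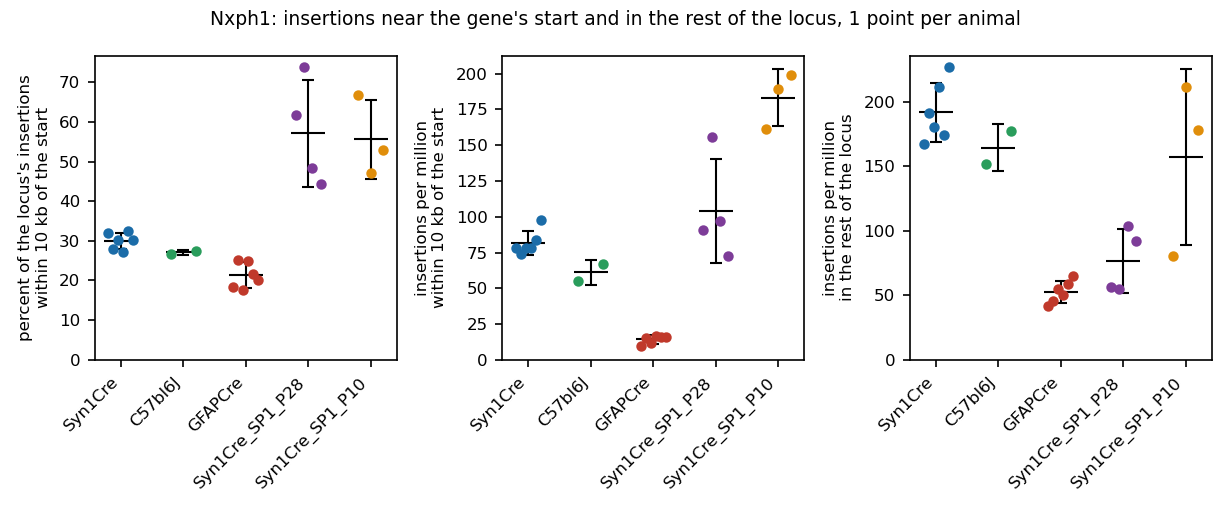
Nxph1 by animal in 5 groups: the percent of its insertions within 10 kb of the start, and the IPM within 10 kb of the start and in the rest of the locus (vertical axes), with the mean and SD as bars. The SP1 animals hold 44.2% to 73.9% within 10 kb against 27.1% to 32.5% in Syn1Cre, and fewer IPM in the rest of the locus at day 28.

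Other genes of the neurexin system changed with the SP1 label in both directions, in comparisons where 51.5% of all loci passed at day 28 and 40.7% at day 10. Counts of genes past the threshold are to be read against those shares. In Syn1Cre_SP1_P28 over Syn1Cre, the neuroligin gene Nlgn2 (3.70 ± 0.23) and Nrxn2 (1.23 ± 0.25) were higher, and 3 of 6 were lower, among them Nrxn3 (-1.28 ± 0.15). With scaling by total insertions 3 were higher and 1 lower. Of 14 other neurexin partners tested, 10 were lower and 1 (Adgrl1, 0.91 ± 0.25) higher, with Lrrtm4 at -1.61 ± 0.17 and a list median of -0.93 against -0.06 for all loci, but 8 were lower and 4 higher with scaling by total insertions. In Syn1Cre_SP1_P10 over Syn1Cre 9 of 14 partners were lower and 0 higher (Lrrtm4 -2.97 ± 0.23), or 5 lower and 2 higher with the other scaling. The interneuron genes gave 2 higher (Gad1 1.01 ± 0.19) and 2 lower (Erbb4 -1.43 ± 0.17) of 13 at day 28, and 9 higher (Lhx6 1.80 ± 0.30) and 2 lower (Maf -1.25 ± 0.41) of 14 at day 10. Under scaling by total insertions these were 6 and 2 at day 28, and 11 and 0 at day 10. Of the layer 6b list 5 of 6 genes were lower at day 28 (Foxp2, not particular to that layer, -1.92 ± 0.19) and 5 of 7 at day 10, with 0 higher at either age. Of the excitatory genes 7 of 8 and 6 of 8 were lower, with 1 and 0 higher. With scaling by total insertions 5 and 3 layer 6b genes and 3 and 3 excitatory genes were lower. Between the ages, where 11.1% of all loci passed, 0 of 11 interneuron genes were higher and 2 lower at day 28 (Lhx6 -1.38 ± 0.34). Their part in the Nxph1 and Nxph2 values was not tested.

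Genes whose group means ran most like those of each neurexophilin were ranked by Pearson's r of log2(group mean IPM + 1) over 10 groups, as a description. For Nxph1 these were Kcnc2 (r = 0.946), a potassium channel gene of fast-spiking neurons, Cir1 (0.937), Shisa6 (0.926), Erbb4 (0.924), the neuregulin receptor known from interneurons, and Slc28a3 (0.924), among 10807 loci. Nxph2 itself had r = 0.881 with Nxph1, Nxph3 0.621 and Nxph4 0.491. For Nxph2 they were Metap1d (0.957), Ikzf3 (0.945), Medag (0.939), Maml3 (0.926) and Zfp536 (0.925). The leading gene was Mroh4 (0.961) for Nxph3 and Dcbld2 (0.922) for Nxph4, whose group means rest on few insertions. The points share their libraries and depths.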

How the data were processed

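Calling card insertions were counted in 47 deposited tables, made by the authors from 194 sequencing samples, covering 46 animals (11 groups) and N2a cells. Each line of a table is 1 insertion with its position, strand, barcode and read count, and the read counts are raw counts as deposited. The submitters' processing notes name mm10, Novoalign and Bowtie2, and coordinates were read as GRCm38. Filters are not given in the sources used here. BrokenHeart starts were moved by -1, the offset at which 51.6% to 53.8% fell on C57bl6J positions, against at most 0.456% at other offsets.

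Insertions were counted in 21627 protein-coding loci, each a RefSeq gene body of GRCm38.p6 with 10 kb on each side. Differences were tested with the edgeR 4.0.16 quasi-likelihood test in R 4.3.3 (TMM on the total insertions of each table, filterByExpr), with p-values adjusted by Benjamini-Hochberg over all loci tested and called under 0.05. The 95% intervals are the log2 change ± 1.96 SE. Shares near the start were tested over animals by exact two-sided permutation, where the median animal of both groups had 10 or more insertions in the locus. Scripts were tested on simulated counts. Python 3.11.15 with numpy 2.4.6, pandas 2.3.3 and scipy 1.17.1 was used.

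The animal was the replicate, numbered as in the labels, which do not say that animals came from separate litters, so p-values measure the spread between these animals. The 4 genes and all lists were chosen with earlier results of these data known. The 4 genes were named in every comparison, and of each list up to 4 genes past the threshold, those with the 2 highest and 2 lowest log2 changes, leaving out some whose level rests on very few insertions. Of 15 comparisons, 14 were planned and 1 was added later. Alternatives were DESeq2 1.42.0, scaling by total insertions, no filter, distinct positions, insertions with 2 or more reads, gene bodies alone, a replicate block, other start windows, and leaving out each animal.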

Additional observations from a re-analysis of the deposited data

Results flagged for a closer look

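Single animals stood apart from the rest of their group at 3 of the loci, by a gap test that was run on 24 combinations of gene and group. It marks about 1 in 20 by chance for continuous values, a rate that does not hold for counts near 0. In Syn1Cre, animal 1 had 38.5 IPM at Nxph2, the lowest of the 6. In Rbp4Cre_TRAP, animal 1 had 35.1 IPM at Nxph3 and animal 2 had 19.9 IPM at Nxph4, where the other 3 animals were at 0 in each case, and these values rest on 2 and 1 insertions. With 3 animals at 0, any insertion in the remaining animal is marked, so nothing is read from these marks.

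The N2a line is a single table that entered no comparison. Its IPM were 23.6 at Nxph1, 53.3 at Nxph3 and 17.4 at Nxph4, each above the limit that a count of 0 allows in that table, 3.72 IPM.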

How the results depend on the processing

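Of the single-gene values under an alternative, 510 kept their direction and side of the threshold, 14 reversed, 7 came to pass and 5 no longer passed; none of the reversed values passed. Without the low-count filter 2 neurexophilins passed in Syn1Cre_SP1_P28 vs Syn1Cre_SP1_P10 and in Rbp4Cre_TRAP vs Syn1Cre, against 1 each. With 2 or more reads 1 passed in Frontflip_GFAPCre vs Syn1Cre and C57bl6J vs Frontflip_GFAPCre (Nxph1, not Nxph2), against 2 each. The same setting gave 1 against 2 in Syn1Cre vs Syn1CreNeg, from which nothing is read because the genes were chosen on it. It gave 1 in Syn1Cre_SP1_P10 vs Syn1Cre, against 0, and 0 in BrokenHeart vs C57bl6J, against 1. With distinct positions 1 passed in GFAPCre vs GFAPCreNeg (Nxph1 0.44, adjusted p = 0.0483) and 1 in C57bl6J vs Frontflip_GFAPCre. With total insertions 1 passed in Syn1Cre_SP1_P10 vs Syn1Cre. BrokenHeart vs C57bl6J gave 2 with DESeq2, with no filter and with the replicate block.

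Leaving out 1 animal at a time gave 0 to 2 in Syn1Cre_SP1_P28 vs Syn1Cre_SP1_P10, 1 to 2 in BrokenHeart vs C57bl6J and 2 to 3 in Syn1Cre_SP1_P28 vs Syn1Cre. For the Nxph1 share within 5 kb of the start the difference was 0.667 to 2.71 points in Syn1Cre_SP1_P28 and -4.32 to 5.40 in Syn1Cre_SP1_P10, where it reversed to -4.32 without Syn1Cre_SP1_P10 animal 1. It was 27.1 and 25.6 points in the 10 kb window, and 5.83 with distinct positions in Syn1Cre_SP1_P28 (adjusted exact permutation p = 0.00714). The cause of these changes was not tested.

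Reversed values were all near 0 or not called. Nxph3 in Syn1Cre vs GFAPCre was between -0.0093 (without GFAPCre animal 4) and 0.28 when animals were left out. Nxph1 in Syn1CreNeg vs GFAPCreNeg was 0.0020 for gene bodies, between -0.089 and 0.085 (without GFAPCreNeg animal 1) when animals were left out, and 0.0349 with Syn1CreNeg animals 4 to 6, a setting added after seeing the data. Nxph1 in Syn1Cre_SP1_P10 vs Syn1Cre was 0.31 with total insertions and 0.24 for gene bodies. Nxph1 in Frontflip_GFAPCre vs GFAPCre was -0.015 with DESeq2, -0.037 with total insertions, -0.059 without filter, -0.14 with distinct positions, and from -0.64 (without Frontflip_GFAPCre animal 1) to 0.35 when animals were left out, negative also without GFAPCre animal 1 or 2. Nxph1 in C57bl6J vs Syn1Cre was 0.039 with the replicate block.

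Animals with the same number did not deviate together (correlation -0.221 to 0.171, not above 0.1 for every pair of any comparison), so the numbers do not pair them. The fit with the replicate block kept 45 of 47 results, the exceptions being those above.

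Depth limits the small groups most, since Rbp4Cre_TRAP, Frontflip_GFAPCre and BrokenHeart had 7, 34 and 22 Nxph1 insertions.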

Other observations

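Insertions at Nxph2 and Nxph1 also favoured the strand of the gene. At Nxph2 80.3% of the Syn1Cre insertions, 80.4% in GFAPCre and 72.2% in C57bl6J lay on the gene's own strand, and at Nxph1 64.7%, 61.4% and 64.8%. The median locus with 100 or more insertions had 44.9% in Syn1Cre, 44.9% in GFAPCre and 48.0% in C57bl6J. At or above the Nxph2 share lay 1.93%, 1.76% and 4.86% of those loci, and at or above the Nxph1 share 12.4%, 16.1% and 12.4%, although Nxph2 itself had 56 insertions in GFAPCre, below that minimum.

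A 50 kb window 540 kb above the Nxph1 locus, singled out after its values were seen, had 24.1 IPM in Syn1Cre and 24.0 in C57bl6J against 2.81 in GFAPCre, and a window at -661 kb from the Nxph2 locus had 37.6, 50.3 and 8.43. These are values with no test.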
